A study of Mus musculus with 3 samples.

Results

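The genes described here are 38 genes of the amino acid response that the transcription factor ATF4 directs, with the serine synthesis enzymes and the cytosolic tRNA synthetases. They were chosen by name: a gene belonged to the set if an array probe carried its symbol, which gave 37 genes, and Ppp1r15a was added through its accession because the array lists it under an older name. They had 68 probes, of which 53 were well above background in both channels on every array, and 34 of the 38 genes were measured among 10950 measured genes. The set was split by role into 7 regulators, 5 stress effectors, 5 serine and one-carbon enzymes, 4 other amino acid enzymes, 5 transporters and 12 synthetases.

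When a cell lacks amino acids or its secretory pathway is overloaded, kinases phosphorylate the initiation factor eIF2, general translation falls and translation of Atf4 mRNA increases. ATF4 then activates genes for amino acid uptake and synthesis and for loading amino acids onto tRNA, together with regulators such as Ddit3 and Trib3 that shape or end the response. Serine synthesis, which branches from glycolysis, feeds the one-carbon pool that proliferating hematopoietic cells use to make nucleotides.

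The treated group was the mouse hematopoietic line MigA9, transformed by the homeobox factor Hoxa9 and grown in medium with serum and GM-CSF-conditioned medium, given 2.5 µM DB818 for 6, 12 or 24 h. DB818 binds the DNA minor groove and was developed to block the binding of HOXA9. The comparison group was the same line without DB818, so Hoxa9 transformation and the conditioned medium are common to both groups. Treated RNA was labelled with Cy5 and untreated RNA with Cy3, and each time had 1 two-colour Agilent array with no dye swap. The labels do not say whether the untreated RNA was 1 preparation or 3, and the results describe 1 cell line.

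Of 41174 probes, 40.8, 40.9 and 41.4% at 6, 12 and 24 h passed the background test in both channels, and repeated spots of 1 probe scattered by 0.044, 0.034 and 0.047 (SD of the log2 ratio over 21 probes). Among markers of the labelled cell type 11 of 12 were measured, Ctsg being the exception, while 0 of 4 markers each of T cells, B cells, erythroid cells and fibroblasts were. Values below are log2 ratios of treated over untreated cells unless another scale is named. With 1 array a time, the number of arrays limits the precision, and a p-value measures the spread between the 3 times, which stand in for replicates. In the mean over the times an effect of DB818 cannot be told apart from a constant difference between the dyes, whereas in the slope over time such a difference cancels.

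Most ratios of the set were close to 0. The largest mean ratio belonged to Psph, the last enzyme of serine synthesis, at 1.33-fold higher in treated cells, while Atf4 itself and the classical targets Ddit3 and Asns did not pass the test. In the test of the mean over the 3 times (limma, adjusted over all genes) 5 members rose, namely Psph, Lars, Mthfd2, Chac1 and Eprs, against 20.60% of all genes. By the same test 4 members fell, namely Nars, Atf5, Eif4ebp1 and Shmt2, against 8.14% of all genes. All 4 of these turned positive under median centring in place of loess (0.06, 0.21, 0.23 and 0.20). Under that centring 25 members rose and 6 others fell, against 4405 and 4474 of all genes. Without the 12 h array 2 members rose and 0 fell, and without the 6 h array 9 rose. The main counts of 5 and 4 of 34 members lie near the shares of the whole array. The member median was -0.03, 0.00 and 0.04 at 6, 12 and 24 h, against 0.03 for all genes at each time. In all, 29 of 34 members (85.3%) stayed within 1.2-fold at every time, against 88.2% of all genes.

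**Figure D1:**
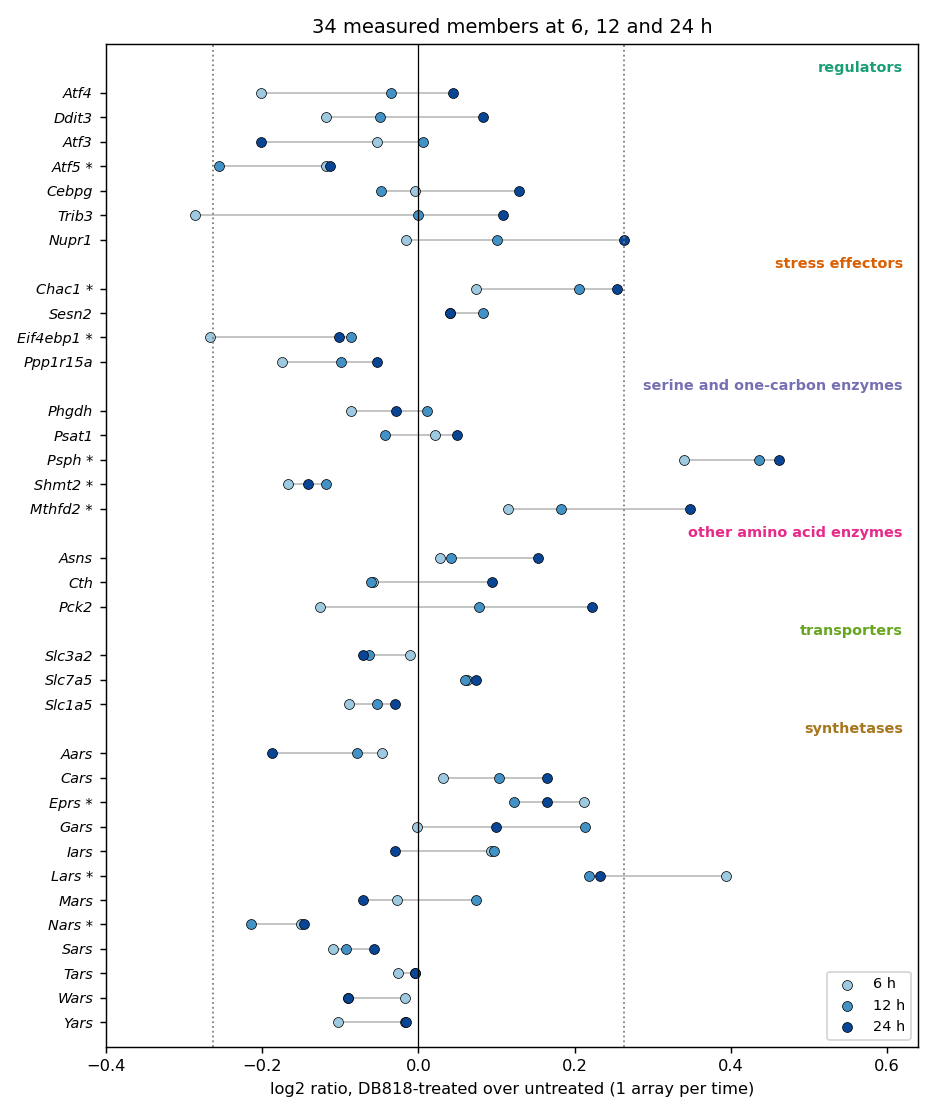
Log2 ratio of DB818-treated over untreated cells (x axis) for each of the 34 measured members (rows, by role) at 6, 12 and 24 h, 1 array a time and no error bar. Dotted lines mark 1.2-fold, asterisks mark members past the test of the mean, and only Psph lies above the upper line at all 3 times.

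At a single time, few members passed 1.2-fold. At 6 h 2 members were that much higher (Psph and Lars), against 3.84% of genes, and 2 were that much lower (Trib3 and Eif4ebp1), against 1.36%. At 12 h Psph was the 1 member higher, against 3.09% of genes, and 0 were lower, against 1.30%. At 24 h 2 members were higher (Psph and Mthfd2), against 5.35% of genes, and 0 were lower, against 2.41%, with Nupr1 just inside at 0.26. Set against the scanner's own error, 4 of 53 member probes had a ratio beyond 2 errors at 6 h, against 4.21% of all probes, and these belonged to Eprs, Trib3 and Lars. At 12 h it was 3 probes (Psph and Lars), against 3.18%, and at 24 h 4 probes (Psph, Aars and Lars), against 5.20%. The median scanner error of a member probe was 0.21 at each time, so most member differences are smaller than what the scanner allows for 1 probe.

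The ratios were also followed over time. The ratio of 3 members rose with time, Trib3, Pck2 and Nupr1, against 2.60% of all genes with a rising ratio in limma's slope on log2 hours, and 0 members fell with time, against 1.96%. In all, 25 of 34 slopes were positive (73.5%), against 49.9% over all genes, and 9 of 34 members (26.5%) had an unadjusted slope p under 0.05, against 2248 of 10950 genes (20.5%). The slope was positive for 6 of 7 regulators, 3 of 4 stress effectors, 5 of 5 serine and one-carbon enzymes, 3 of 3 other enzymes and 2 of 3 transporters, and for 6 of 12 synthetases. These counts include slopes below their SE, as in Atf5 (0.003), Phgdh (0.03), Psat1 (0.01) and Shmt2 (0.01). Of the serine and one-carbon enzymes 0 had a called trend. That test has 1 residual degree of freedom and borrows its variance from all genes (prior 10.19). On simulated data it recovered 0 of 67 planted slopes of 1.2-fold per doubling. The simulation called 84 slopes, against 500 in the data, where smaller slopes such as that of Nupr1 (0.14) were called. Its recovery therefore does not give the power of the test as run. A count of 0 falling members does not show that none fell. From the scanner's own ratios 0 genes were called for a trend and 1765 had an unadjusted p under 0.05.

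Among the regulators, Trib3 encodes a pseudokinase that ATF4 and CHOP induce and that restrains ATF4 in return. Its normalised signals in arbitrary units were 131, 118 and 129 in treated cells at 6, 12 and 24 h, against 160, 118 and 119 in untreated cells, giving ratios of -0.29, 0.00 and 0.11. The treated values stayed in a narrow range while the untreated value was highest on the 6 h array. The ratio of Trib3 rose by 0.20 ± 0.04 (SE, n = 3 arrays) per doubling of time, adjusted p = 0.013, which makes the 24 h ratio 1.31 times the 6 h ratio. The size of this slope depended on the processing. It was 0.27 with plain background subtraction, 0.15 under median centring and 0.34 from the scanner's own ratios, where the call was lost. The 2 probes of Trib3 stood together at -0.32 and -0.25 at 6 h and apart at 0.25 and -0.03 at 24 h. Both ratios were higher at 24 h than at 6 h, and past 12 h only the brighter probe went on upward.

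Nupr1, a small chromatin-associated stress protein, had signals of 843, 837 and 889 in treated cells, against 852, 781 and 741 in untreated cells. Its ratios were -0.02, 0.10 and 0.26, a slope of 0.14 ± 0.03 (SE, n = 3 arrays) with adjusted p = 0.038. The treated signal was above the untreated one at 12 and 24 h. This call was lost in 5 of 9 other settings.

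Pck2, the mitochondrial enzyme that makes phosphoenolpyruvate from oxaloacetate, had signals of 1227, 1302 and 1300 in treated cells, against 1340, 1234 and 1115 in untreated cells. Its ratios were -0.13, 0.08 and 0.22, a slope of 0.17 ± 0.03 (SE, n = 3 arrays) with adjusted p = 0.015. As with Trib3, the ratio changed side between the 6 h and the 24 h array. The call was lost in 3 of 9 other settings.

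In all 3 genes the untreated channel moved more between arrays than the treated one. After quantile normalisation of the channels, the 24 h minus 6 h difference in log2 signal was -0.07 in treated and -0.49 in untreated cells for Trib3. It was 0.03 in treated and -0.25 in untreated cells for Nupr1, and 0.03 in treated and -0.32 in untreated cells for Pck2. Atf4 and Mthfd2 showed 0.00 and 0.01 in treated cells against -0.26 and -0.24 in untreated cells. A lower untreated signal at 24 h was not particular to these genes. Atf5 and Shmt2, with slopes near 0, showed -0.33 and -0.32 in untreated cells, with -0.32 and -0.29 in treated cells. Some members went the other way, such as Atf3 and Asns at 0.28 and 0.17 in untreated cells and 0.12 and 0.27 in treated cells. The part of the untreated channel in these slopes was not tested.

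**Figure D2:**
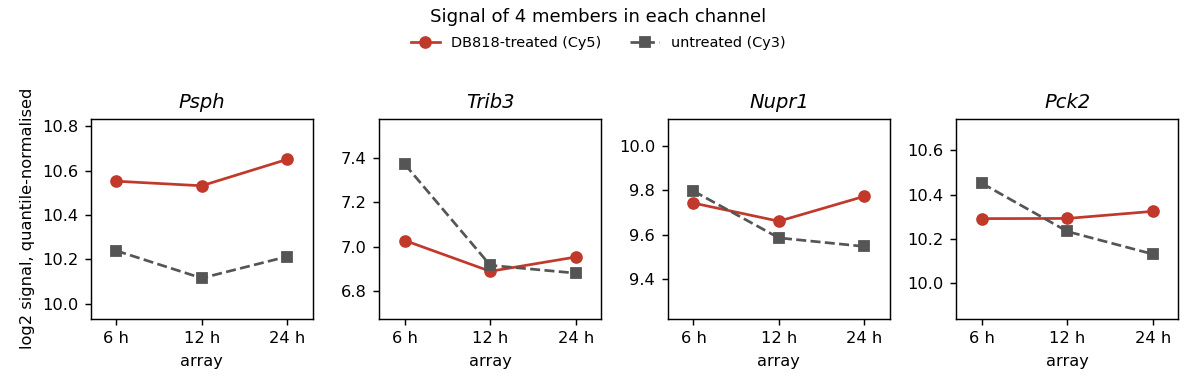
Quantile-normalised log2 signal (y axis, own range of equal height per panel) of Psph, Trib3, Nupr1 and Pck2 in DB818-treated cells (Cy5, circles) and untreated cells (Cy3, squares) on the 6, 12 and 24 h arrays, 1 value per point. Psph lies higher in treated cells on every array, while for Trib3, Nupr1 and Pck2 the untreated signal is lower on the 24 h array than on the 6 h array.

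The other regulators gave smaller differences. Atf4, the transcription factor at the head of the response, had signals of 622, 673 and 644 in treated cells, against 716, 690 and 625 in untreated cells. Its ratios of -0.20, -0.03 and 0.04 gave a slope of 0.12 that missed the threshold (adjusted p = 0.062). The slope passed when the variance was allowed to follow signal intensity (adjusted p = 0.0497). The mean of Atf4 was -0.06 ± 0.05 (SE, n = 3 arrays) with adjusted p = 0.35. Under median centring that mean passed the test as a rise (0.15, adjusted p = 0.018). Ddit3, which encodes the pro-apoptotic factor CHOP, ran from below to above 0 (-0.12, -0.05 and 0.08) without a call, with a slope adjusted p of 0.11. Under median centring its mean passed the test as a fall (-0.37, adjusted p = 7.8e-05). Atf3, a stress-induced repressor, stood at -0.05, 0.01 and -0.20, the 24 h value being the lowest ratio of any member at that time. Its mean of -0.08 was not called. It was called as a fall under median centring (-0.70, adjusted p = 3.6e-06) and from the scanner's own ratios (-0.33, adjusted p = 0.048). Cebpg, a dimer partner of ATF4, stood at 0.00, -0.05 and 0.13, also without a call.

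Atf5, an ATF4-related factor linked to the mitochondrial stress response, was the 1 regulator that fell in the mean. Its signals were 2662, 2290 and 2229 in treated cells, against 2890, 2733 and 2412 in untreated cells. Treated cells were lower on all 3 arrays, at -0.12, -0.25 and -0.11, with a mean of -0.16 ± 0.04 (SE, n = 3 arrays) and adjusted p = 0.022. Without the 12 h array the call was lost.

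Of the 4 measured stress effectors, 1 rose and 1 fell. Chac1, which degrades glutathione, had signals of 506, 550 and 645 in treated cells, against 481, 477 and 541 in untreated cells. Its ratio was above 0 on each array (0.07, 0.21 and 0.25), with a mean of 0.18 ± 0.04 (SE, n = 3 arrays) and adjusted p = 0.021. The call was lost without the 12 h array and also without the 24 h array.

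Eif4ebp1, an inhibitor of cap-dependent translation, had signals of 2604, 2710 and 2543 in treated cells, against 3134, 2876 and 2727 in untreated cells. It was lower in treated cells on all 3 arrays (-0.27, -0.09 and -0.10) and its mean of -0.15 ± 0.04 (SE, n = 3 arrays) had adjusted p = 0.038. A dim second probe was not above background in untreated cells at 12 h and was left out. That probe lay on the other side of 0, at 0.11, 0.16 and 0.11. With no filter on dim probes the mean of Eif4ebp1 was -0.01 (adjusted p = 0.81). With probes measured on each array it was -0.05 (adjusted p = 0.25). The call held in 5 of 12 other settings. The call was lost without the 6 h array and also without the 12 h array.

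Ppp1r15a, the phosphatase subunit GADD34 that ends eIF2 phosphorylation, was below 0 at each time (-0.17, -0.10 and -0.05) with adjusted p = 0.055 in the mean. Sesn2, a leucine sensor upstream of mTORC1, stood at 0.04, 0.08 and 0.04, where its 2 probes lay on opposite sides of 0 (means of 0.18 and -0.07). The fifth effector, the lipoprotein receptor Vldlr, was not above background in either channel on any array.

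In serine synthesis the last step stood apart from the earlier steps. Psph removes the phosphate from phosphoserine to give serine, and its signals were 1464, 1530 and 1621 in treated cells, against 1157, 1131 and 1177 in untreated cells. The treated value was above the untreated one on each array. The ratios of 0.34, 0.44 and 0.46 gave a mean of 0.41 ± 0.03 (SE, n = 3 arrays), adjusted p = 0.0031. The call held in 12 of 12 other settings, with means between 0.39 and 0.72. Among these settings is the scaling between arrays, which leaves ratios as they are by construction.

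Its 2 probes gave means of 0.42 and 0.40, the closest pair among the 14 members with several measured probes, whose median spread was 0.10. Phgdh, the first enzyme of the pathway, stood at -0.09, 0.01 and -0.03 and Psat1, the second, at 0.02, -0.04 and 0.05. Neither passed the test (adjusted p = 0.45 and 0.84), and Phgdh turned to a mean of 0.36 under median centring. Cct6a, a chaperonin subunit listed beside Psph in RefSeq's gene order and chosen for its position, had a mean of 0.09 with adjusted p = 0.13.

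Of the mitochondrial one-carbon enzymes, Mthfd2 rose and Shmt2 fell, although under median centring both were above 0 (0.32 and 0.20). Mthfd2, a folate enzyme downstream of Shmt2, had signals of 384, 390 and 398 in treated cells, against 355, 344 and 313 in untreated cells. Its ratios of 0.11, 0.18 and 0.35 gave a mean of 0.22 ± 0.05 (SE, n = 3 arrays) with adjusted p = 0.018, and a slope of 0.12 whose adjusted p was 0.075. Shmt2, which passes a carbon from serine to folate in the same compartment, had signals of 1848, 1953 and 1577 in treated cells, against 2074, 2119 and 1739 in untreated cells.

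The Shmt2 ratio was below 0 on all 3 arrays (-0.17, -0.12 and -0.14), its mean was -0.14 ± 0.03 (SE, n = 3 arrays) and its adjusted p was 0.016. Without the 12 h array, the calls of both Mthfd2 and Shmt2 were lost.

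None of the 3 other measured amino acid enzymes was called in the mean. Asns, the asparagine synthetase that is the classical ATF4 target, had signals of 5978, 7976 and 7738 in treated cells, against 5866, 7745 and 6958 in untreated cells. Its ratios of 0.03, 0.04 and 0.15 all lay above 0, with adjusted p = 0.16 in the mean. Cth, which makes cysteine from cystathionine, stood at -0.06, -0.06 and 0.09 at low signals of 74.6 to 82.7 in treated and 77.5 to 79.4 in untreated cells. Cbs, which makes cystathionine, was not above background in either channel on any array.

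Of the 3 measured transporters 0 passed the test. Slc7a5, the large neutral amino acid exchanger, was the steadiest at 0.06, 0.06 and 0.07 (adjusted p = 0.13), and its heavy-chain partner Slc3a2 stood at -0.01, -0.06 and -0.07. Slc1a5, the glutamine carrier, lay at -0.09, -0.05 and -0.03, and its mean of -0.06 turned to 0.26 under median centring. Slc7a1, a cationic amino acid carrier, and Slc7a11, the cystine importer, had no probe measured on all arrays.

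Of the 12 cytosolic synthetases, which load amino acids onto tRNA, 2 rose, 1 fell and 9 were not called. Among all genes 20.60% rose and 8.14% fell. Eprs, the glutamyl-prolyl enzyme, had signals of 477, 450 and 423 in treated cells, against 412, 413 and 378 in untreated cells. Its ratios were 0.21, 0.12 and 0.16, with a mean of 0.17 ± 0.03 (SE, n = 3 arrays) and adjusted p = 0.013. Its 4 probes all had positive means, between 0.09 and 0.30, and the call was lost when the brightest of them was used alone or without the 12 h array.

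Lars, the leucyl enzyme, had a mean of 0.28 ± 0.04 (SE, n = 3 arrays) with adjusted p = 0.0064, at ratios of 0.39, 0.22 and 0.23. That rise came from 1 of its 3 probes. This probe had signals of 1218, 1049 and 1056 in treated cells, against 511, 568 and 633 in untreated cells, or ratios of 1.25, 0.89 and 0.74. The other probes had means of -0.08 and -0.04, and with the brightest probe alone Lars was at -0.04 (adjusted p = 0.41). The probes of Lars spread by 1.04, the widest of the 14 members, so its gene-level value depends on which probe is taken.

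Nars, the asparaginyl enzyme, had signals of 704, 692 and 661 in treated cells, against 782, 803 and 732 in untreated cells. It fell, at -0.15, -0.21 and -0.15, with a mean of -0.17 ± 0.03 (SE, n = 3 arrays) and adjusted p = 0.011. Without the 12 h array the call was lost.

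The other synthetases lay close to 0, with means between -0.10 (Aars, the alanyl enzyme) and 0.10 (Gars, the glycyl enzyme). Aars was below 0 on each array (-0.05, -0.08 and -0.19) and Cars, the cysteinyl enzyme, above it (0.03, 0.10 and 0.16), at adjusted p = 0.074 and 0.075. Gars was highest at 12 h (0.00, 0.21 and 0.10). Iars, the isoleucyl enzyme, stood at 0.09, 0.10 and -0.03, and Mars, the methionyl enzyme, at -0.03, 0.07 and -0.07. The seryl (Sars), threonyl (Tars), tryptophanyl (Wars) and tyrosyl (Yars) enzymes had means of -0.09, -0.01, -0.07 and -0.05. Under median centring Aars, Mars, Sars, Tars and Yars turned positive.

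**Figure D3:**
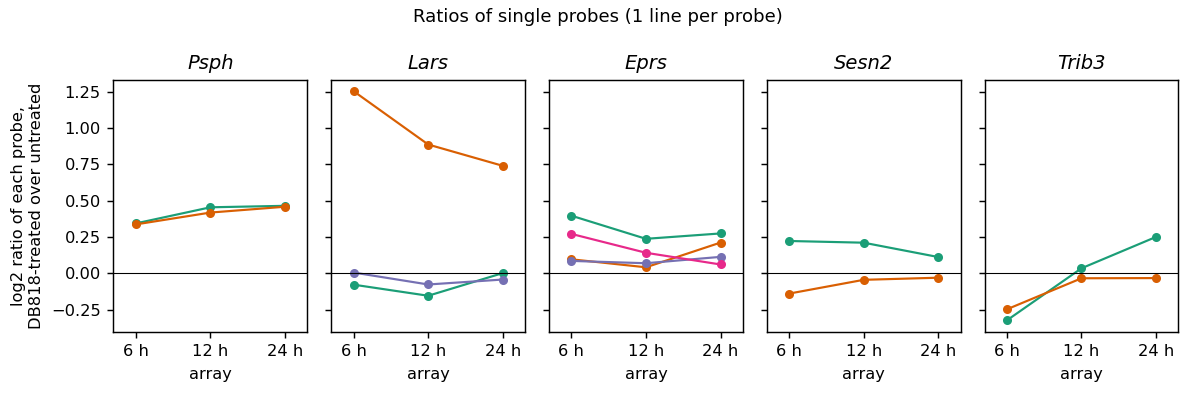
Log2 ratio of DB818-treated over untreated cells (y axis) of each probe measured on all arrays, 1 line per probe, on the 6, 12 and 24 h arrays (x axis). The probes of Psph coincide between 0.34 and 0.46, whereas 1 Lars probe lies at 0.74 to 1.25 and its others near 0, and the probes of Sesn2 lie on opposite sides of 0.

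Genes around the set were read from lists of the same pathway. Of 11 other cytosolic synthetases and scaffold proteins, all measured, 1 rose and 1 fell, against 20.60% and 8.14% of all genes. Vars, the valyl enzyme, fell at -0.37, -0.32 and -0.34, with a mean of -0.34 ± 0.03 (SE, n = 3 arrays) and adjusted p = 0.0031, and this held in 12 of 12 other settings. The scaffold protein gene Eef1e1 rose by a mean of 0.11 (adjusted p = 0.036). The call of Eef1e1 was lost without any 1 of the arrays.

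Among 12 measured genes for eIF2 kinases, eIF2 and its exchange factor, 3 kinases rose and 1 exchange factor subunit fell. Of all genes 20.60% rose and 8.14% fell. The kinases were Eif2ak2, the double-stranded RNA sensor PKR (mean of 0.31, adjusted p = 0.0050), Eif2ak3, the endoplasmic reticulum sensor PERK (0.19, 0.0090), and Eif2ak4, the uncharged tRNA sensor GCN2 (0.11, 0.039). The subunit was Eif2b2 (-0.17, 0.014), which turned to 0.22 under median centring, while Eif2ak4 turned to -0.12 and Eif2ak2 stood at 0.084 without a call (adjusted p = 0.073). The calls of Eif2ak3, Eif2ak4 and Eif2b2 were lost without the 12 h array, and that of Eif2ak4 also without either of the others.

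Among 20 measured genes of 26 other reported ATF4 targets, a list that shares Rars with the other synthetases, 5 rose and 3 fell in the mean. The shares over all genes were 20.60% and 8.14%. The highest were Gdf15, a stress-induced cytokine, at 0.26, 0.55 and 0.60 (mean of 0.47, adjusted p = 0.0055), Slc6a9, a glycine transporter, at 0.22, 0.51 and 0.59 (0.44, 0.0068), and Jdp2, an AP-1 family repressor, at 0.17, 0.35 and 0.48 (0.33, 0.0089). The lowest were Tspyl2 (-0.26, 0.0047), Stc2, a secreted glycoprotein (-0.14, 0.042), and Mthfd1l, a mitochondrial folate enzyme (-0.11, 0.037), of which Stc2 and Mthfd1l turned positive under median centring. The calls of Stc2 and Mthfd1l were lost without any 1 of the arrays, and that of Jdp2 without the 12 h array. The ratio rose with time in 4 of the 20, against 2.60% of all genes, and 16 of 20 slopes were positive, against 49.9%. The mean of Gdf15 held in 12 of 12 other settings and its trend in 5 of 9.

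**Figure D4:**
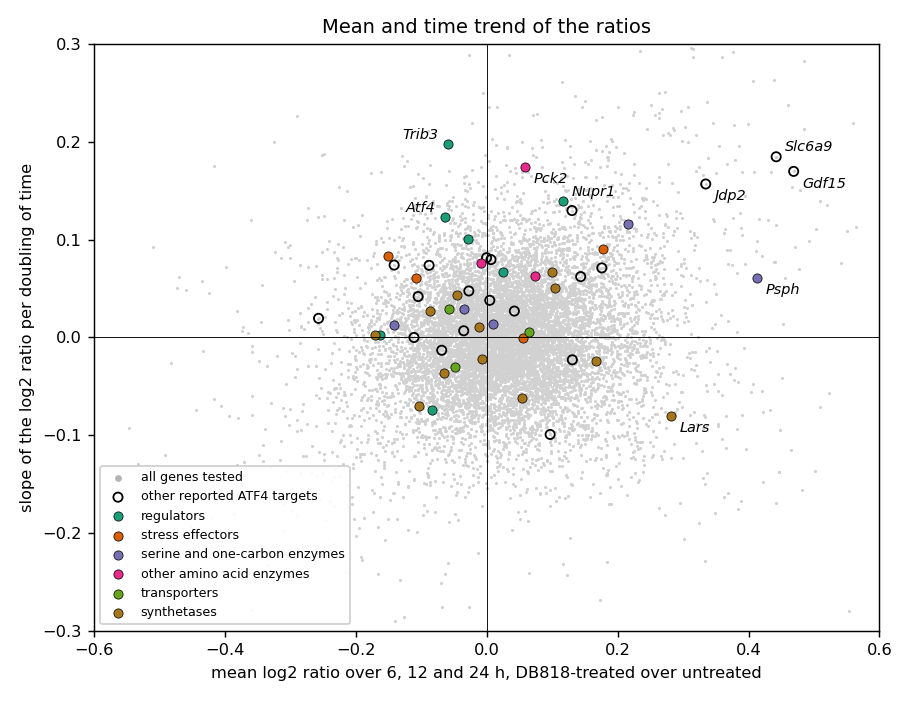
Mean log2 ratio over the 3 times, DB818-treated over untreated (x axis), against its slope per doubling of time (y axis), for all genes tested (grey), other reported ATF4 targets (open circles) and members (colours by role). Psph lies far right at a mean of 0.41 and a slope of 0.06, Trib3 highest among members at a slope of 0.20, and 45 genes lie outside the axes.

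Promoters are shown for the 3 members with a rising ratio and for Psph, the member with the largest mean. ATF4 pairs with C/EBP proteins on a composite element, searched here as TGATGNAA on both strands. Sequences are RefSeq's on build GRCm38.p6, read along the gene's strand from 250 bases before the start to 30 after it, and capitals mark a match, which in Trib3, Nupr1 and Pck2 lies on the opposite strand. The windows are Trib3 at chr2:152344031-152344310 (minus strand), Nupr1 at chr7:126625441-126625720 (minus), Pck2 at chr14:55540016-55540295 (plus) and Psph at chr5:129787224-129787503 (minus).
Trib3: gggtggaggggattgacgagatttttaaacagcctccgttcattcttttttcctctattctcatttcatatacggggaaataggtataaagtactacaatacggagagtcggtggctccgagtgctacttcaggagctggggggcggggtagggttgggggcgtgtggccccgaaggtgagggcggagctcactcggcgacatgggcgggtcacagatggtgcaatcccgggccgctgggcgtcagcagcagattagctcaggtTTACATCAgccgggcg
Nupr1: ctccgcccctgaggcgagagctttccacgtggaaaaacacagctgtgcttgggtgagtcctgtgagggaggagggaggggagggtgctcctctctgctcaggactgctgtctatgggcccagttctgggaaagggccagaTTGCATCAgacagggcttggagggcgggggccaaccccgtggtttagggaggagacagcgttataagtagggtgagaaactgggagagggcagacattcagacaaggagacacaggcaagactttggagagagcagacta
Pck2: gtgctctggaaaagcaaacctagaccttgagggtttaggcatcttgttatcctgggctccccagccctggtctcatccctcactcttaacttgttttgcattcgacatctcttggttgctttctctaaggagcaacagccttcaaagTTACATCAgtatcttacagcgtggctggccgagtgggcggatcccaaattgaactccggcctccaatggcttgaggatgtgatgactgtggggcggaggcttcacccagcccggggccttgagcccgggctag
Psph: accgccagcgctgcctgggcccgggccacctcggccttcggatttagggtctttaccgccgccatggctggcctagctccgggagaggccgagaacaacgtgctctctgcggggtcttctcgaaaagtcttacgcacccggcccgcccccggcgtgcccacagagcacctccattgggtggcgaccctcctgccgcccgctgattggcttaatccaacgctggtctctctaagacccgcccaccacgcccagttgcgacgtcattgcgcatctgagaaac
The first base of the match lies at position 15 in Trib3, -110 in Nupr1 and -103 in Pck2, counted from the start, and the Psph window holds none.

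Over RefSeq's windows from 250 bases before the start to 50 after it, 30 of 38 members had an entry. Some members have 2 entries, which makes 34 windows. The element TGATGNAA was found in 13 of these 34 windows (38.2%), against 3.97% of all 32851 windows, and the matches belong to 13 of the 30 members. The members were chosen by name as genes of the ATF4 response, so this difference is not independent of how the set was chosen. The matches lay in the regulators Atf3, Trib3 and Nupr1, in the effectors Chac1 and Vldlr, in the enzymes Asns and Pck2, in the transporter gene Slc7a11 and in the synthetases Aars, Gars, Iars, Tars and Yars. Of the measured members, the 11 with a match had a median slope of 0.05 and the 15 without one 0.03, and 8 and 11 of these slopes were positive. The cAMP response element TGACGTCA, which reads the same on both strands, was found in 1 member, Ppp1r15a (1 of 34 windows or 2.94%, against 1.79% of all windows). A match is a description of these letters and does not show binding.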

How the data were processed

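RNA of DB818-treated (Cy5) and untreated (Cy3) MigA9 cells was compared on 3 two-colour arrays. The authors used Agilent Feature Extraction 9.1.3.1, per the submitters' processing notes. Per the file headers, the deposited scanner files hold intensity for each channel and spot flags, and a log10 ratio. They also hold an error of that ratio from the scanner software, a deposited score that was used here as given. The deposited value table holds the same log10 ratio, treated over untreated (largest difference 0). The log2 ratios here were computed from the deposited intensity values.

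The mean foreground signals were corrected for the median background with normexp (offset 50), which draws ratios of dim genes toward 1, and normalised by loess within arrays in limma 3.58.1 (R 4.3.3). Control and outlier spots were left out. Each gene took the mean of its unsaturated probes well above background in both channels on all arrays. Probes were named through a RefSeq table by accession (22864), symbol (6732) or synonym (3498), and 8080 kept the file's name. Both the mean of the 3 ratios and their slope on log2 hours were tested against 0 with eBayes and Benjamini-Hochberg adjustment over 10950 genes at 0.05 (2 and 1 residual degrees of freedom, prior 4.83 and 10.19). Single times were described by size, with no test. The signals given in arbitrary units are those after loess within arrays. The 24 h minus 6 h differences of each channel and the figure of channel signals use quantile normalisation between arrays. Every measured member could be named, and of other genes in each list the 3 highest and 3 lowest means past the threshold. Members and lists were chosen with earlier results of these data known. Alternatives covered background correction, normalisation, the dim-probe filter, the choice of probe, the source of the ratios, the variance model, the time scale, array weights, the threshold and leaving out each array. The tests were checked on simulated data with planted changes. The test of the mean recovered 48 of 67 genes at 1.2-fold and 63 of 67 at 1.5-fold, with 10 of 187 calls false. The slope test recovered 0 of 67 genes at 1.2-fold per doubling of time and 36 of 67 at 1.5-fold, with 0 of 84 calls false. In the data that test called 500 genes, so the simulated recovery does not give its power as run. Promoters were searched with Python 3.11.15, and figures drawn with matplotlib 3.10.9.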

Additional observations from a re-analysis of the deposited data

Results flagged for a closer look

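The ratio of 3 members differed between the times by limma's test of the slope. It rose per doubling of time by 0.20 for Trib3, 0.14 for Nupr1 and 0.17 for Pck2.

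Outside the genes measured in both channels, 2 amino acid transporter genes gave signal that was well above background in treated cells and not in untreated cells. The probe of Slc7a1 was so at 6 and 12 h. Its signals were 69.3 in treated and 70.1 in untreated cells at 6 h, and 68.8 and 65.0 at 12 h, a ratio of 1.06. Of the 4 probes of Slc7a11, 1 was above background in treated cells alone at 12 and 24 h. Its signals were 68.0 in treated and 63.0 in untreated cells at 12 h (ratio 1.08), and 74.3 and 66.8 at 24 h (ratio 1.11). These are ratios of the spots' own signals near background and set no lower limit. The scanner's log2 ratio was 0.60 with an error of 0.78 for Slc7a1 at 12 h. For Slc7a11 it was 1.17 with an error of 0.86 at 12 h and 0.70 with an error of 0.66 at 24 h.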

How the results depend on the processing

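No paired analysis was possible because each time has 1 array and the labels give no replicate numbers. Treated and untreated RNA of an array are already joined in its ratio. Of the called members Psph kept its call in all 12 settings of the mean that changed the processing or left out an array, and Lars in 11. One alternative, taking the probes measured on each array, was chosen after seeing the data. Scaling between arrays by average intensity leaves ratios as they are by construction. It is counted among the 12 settings of the mean and the 9 of the slope, although its outcome was fixed in advance.

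Members that rose numbered 5, and were 2 at a threshold of 0.01, 11 with array weights (0.417, 4.55 and 0.526 at 6, 12 and 24 h), 3 with the brightest probe, 2 from the deposited value table, 25 with median centring, and 2 to 9 when 1 array was left out (2 without the 12 h array, 9 without the 6 h array). Members that fell numbered 4, and were 0 at 0.01, 10 with array weights and 2 from the value table. They were 6 with median centring, and 0 to 4 with an array left out (0 without the 12 h array). Members rising with time numbered 3, and were 0 from the value table and 1 each with no filter on dim probes and with plain subtraction of background. Over all genes, 2257 rose, against 714 at 0.01, 4277 with weights, 701 from the value table, 4405 with median centring and 458 to 2297 with an array left out. In the same way 891 fell, against 243, 2188 and, with median centring, 4474, and 158 to 952. For the trend, 285 genes rose, against 0 from the value table and 78 with no filter, and 215 fell, against 0, 64, 116 with plain subtraction and 143 with probes measured on each array.

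The member medians of -0.03, 0.00 and 0.04 at 6, 12 and 24 h were 0.20, 0.19 and 0.21 with median centring. From the value table they were -0.091 and -0.054 at 6 and 12 h, and with the brightest probe -0.038 and -0.021 at 12 and 24 h. Members at least 1.2-fold higher at 6, 12 and 24 h (2, 1 and 2) were 8, 9 and 15 with median centring, and 1 at 6 h with the brightest probe. Members at least 1.2-fold lower (2, 0 and 0) were 6, 3 and 2 from the value table, 5, 5 and 4 with median centring, 1 at 12 and 24 h with plain subtraction, and 1 at 6 h with no filter and with probes measured on each array. Among members called in at least 1 of the settings compared, mean ratios changed sign under median centring (Atf4 0.15, Atf5 0.21, Eif4ebp1 0.23, Phgdh 0.36, Shmt2 0.20, Slc1a5 0.26, Aars 0.14, Mars 0.18, Nars 0.060, Sars 0.28, Tars 0.21 and Yars 0.15) and, for Lars, with the brightest probe (-0.039). Members called in neither setting changed sign too, among them Trib3 (0.054) and Ddit3 (0.017) without the 6 h array, Sesn2 (-0.072) with the brightest probe and Cebpg with median centring (-0.11) and from the value table (-0.048). The cause was not tested.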
